A study of Mus musculus with 2 samples.

Results

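The genes described here are 35 members of the cholesterol and fatty acid synthesis pathways, chosen by symbol from a fixed list, out of 45777 genes in the deposited table of read counts, and all 35 symbols matched 1 row each. The members were measured by RNA sequencing of whole mouse kidneys, in 1 library from mice with a conditional knockout (CKO) specific to the proximal tubule and 1 library from control mice. The series title names Inmt, an amine and selenium methyltransferase gene, as the deleted gene, and Inmt had 5283 reads in the CKO library against 17678 in the control library. Both groups ate chow, had free access to water and received no treatment. The labels give neither the Cre driver nor the strain, sex, age or number of animals behind each library, and the genotype of the control mice is not stated. Each group has 1 library, so no difference below has a replicate check or a test, and the intervals cover counting error only.

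Cells make cholesterol from acetyl-CoA through mevalonate, isoprenoids, squalene and lanosterol. The transcription factors called SREBPs drive the genes of this route when membrane sterol is low: Scap escorts them out of the endoplasmic reticulum, and Insig proteins hold that complex back when sterol is plentiful. Fatty acids start from the same acetyl-CoA, which Acly supplies, and are then lengthened by elongases and given double bonds by desaturases. The proximal tubule is known for burning fatty acids as fuel, and lipid builds up in it in several kinds of kidney injury.

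The count table held 38136616 reads for the CKO library and 33618076 for the control library, of which the members took 0.283% and 0.288%. CPM values are reads scaled to a common library size by TMM, a scaling that assumes most genes are equal between libraries, and a gene with 1 CPM or more in either library was called expressed. This held for 15129 genes and for all 35 members, whose reads ran from 293 to 21238 in the CKO library and from 241 to 23831 in the control library. A log2 ratio sets CKO over control after 0.5 was added to each CPM value, and the median over all expressed genes was 0.01. With total counts as the scale that median was 0.32, so a small ratio is read here against the median and not against 0. In these bulk libraries, fewer cells of a type and less RNA per cell cannot be told apart.

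The members went both ways in the CKO library. Several abundant enzymes of sterol synthesis were lower, with Idi1 and Cyp51 past 2-fold. The desaturase genes Scd1 and Scd2, the elongase gene Elovl6, the carboxylase gene Acacb and the regulator gene Srebf1 were 1.58-fold to 1.92-fold higher. The other genes of fatty acid chain synthesis were not in this group: Acaca was 1.11-fold higher, and Fasn and Acly had log2 ratios of -0.09 and -0.25. Of the 35 members, 2 were at least 2-fold lower, against 1.66% of all expressed genes, and none (0) was at least 2-fold higher, against 10.3% of all expressed genes. With a minimum of 10 CPM, which 34 members passed, these counts were again 2 and 0, against 1.79% and 5.62% of genes. A log2 ratio below 0 was found for 21 members, against 49.3% of expressed genes, and above 0 for 14, against 50.7%. With the 10 CPM minimum, 20 of 34 members were below 0, against 58.9% of genes, and 14 above 0, against 41.1%, so the members split as all genes of that level did. At 1.5-fold, 7 members were lower, against 6.85% of all expressed genes, and 5 were higher, against 19.3%. The same 7 and 5 members passed 1.5-fold with the 10 CPM minimum, against 7.72% of genes lower and 11.4% higher, so the higher members go from a smaller to a slightly larger share than all genes. The median log2 ratio was -0.05 over all members, -0.13 over the 18 enzymes of sterol synthesis and -0.05 over the 11 enzymes of fatty acid synthesis. Scaling by total counts turned all 3 medians positive, to 0.26, 0.17 and 0.26, each below the 0.32 of all expressed genes. It also changed the 2-fold counts to 0 members lower and 3 higher, against 0.670% and 15.7% of all expressed genes.

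**Figure D1:**
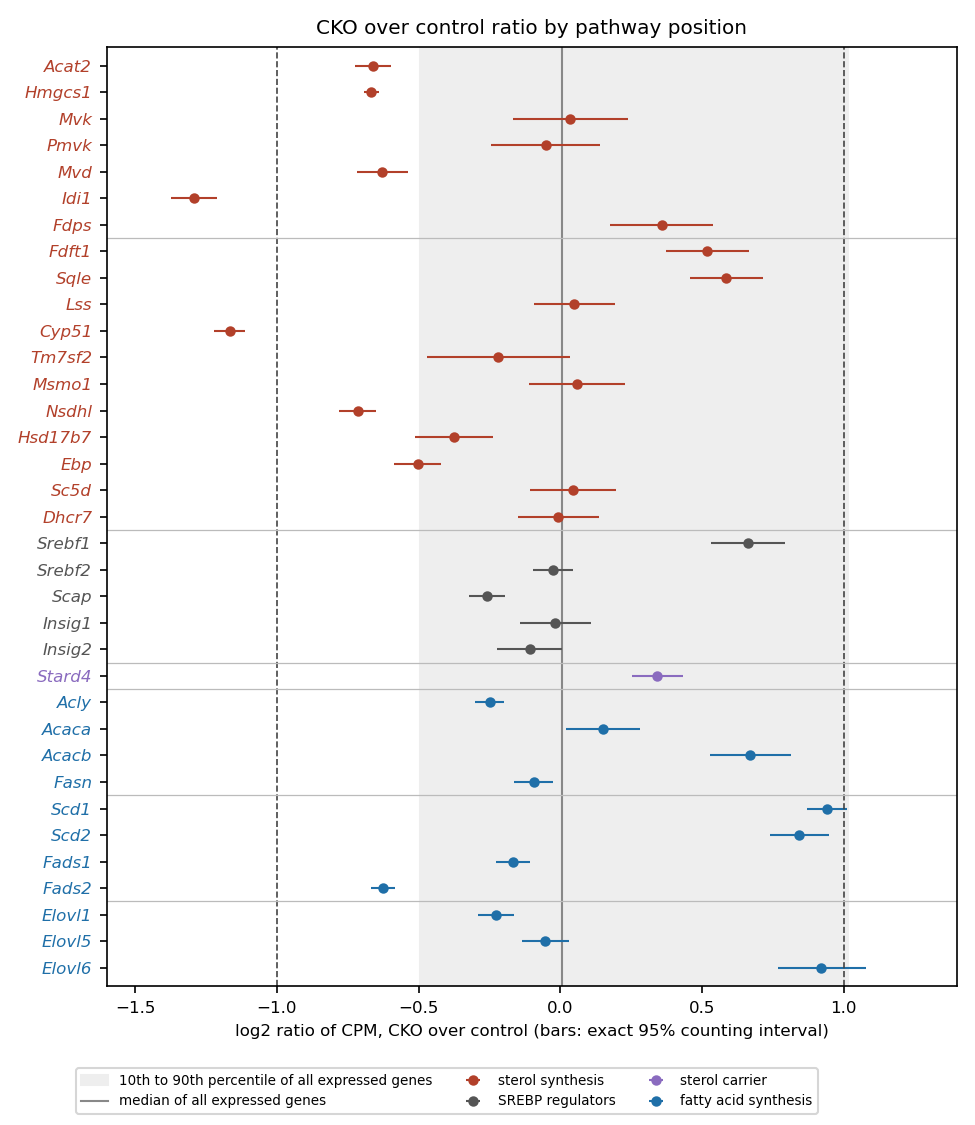
Log2 ratio of CPM, CKO over control, for the 35 members in pathway order, each point with its exact 95% counting interval; dashed lines mark 2-fold, the grey band the 10th to 90th percentile of all expressed genes. Idi1 and Cyp51 lie beyond the lower 2-fold line, Scd1, Elovl6 and Scd2 lie closest to the upper one, and total counts as the scale would move every point up by about the 0.32 that the median of all expressed genes takes.

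The steps from acetyl-CoA to farnesyl diphosphate held the lowest member. Idi1, the isomerase that turns isopentenyl diphosphate into dimethylallyl diphosphate, had 1959 reads in the CKO library against 3394 in the control library. Its level was 46.0 CPM in the CKO library (exact Poisson 95% interval 44.0 to 48.1) and 113 CPM in the control library (109 to 117), a value 2.45-fold lower (exact interval 2.32 to 2.59). A lower log2 ratio was found in 0.694% of expressed genes.

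Hmgcs1, the cytosolic HMG-CoA synthase of the mevalonate route, was the most abundant member per length in both libraries. By the authors' values it was at 140 FPKM in the CKO library and 178 FPKM in the control library. It had 21238 reads in the CKO library against 23831 in the control library, and was 1.59-fold lower (1.56 to 1.62). Acat2, the cytosolic thiolase that joins acetyl-CoA units, was 1.58-fold lower (1.51 to 1.65), with 3768 reads in the CKO library against 4215 in the control library. Mvd, which decarboxylates mevalonate diphosphate, was 1.55-fold lower (1.45 to 1.64), with 1929 reads in the CKO library against 2108.

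The kinases between these enzymes lay near the median of all genes. Mvk, mevalonate kinase, had 491 reads in the CKO library against 339 in the control library, a log2 ratio of 0.03 with a ratio interval of 0.890 to 1.18. Pmvk, phosphomevalonate kinase, had 528 reads in the CKO library against 387, a log2 ratio of -0.05 with an interval of 0.845 to 1.10. Both intervals include 1. Fdps, farnesyl diphosphate synthase, the step after Idi1, was the only member of this stretch whose interval lay above 1: it was 1.28-fold higher (1.13 to 1.45), on 705 reads in the CKO library against 389.

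Neighbouring steps therefore differed, and this does not depend on how the libraries are scaled when reads are compared within each library. The CKO library held 2.78 Idi1 reads per Fdps read and the control library 8.72, a ratio 3.14-fold lower (95% interval 2.74 to 3.60). Member pairs compared within libraries were chosen after their values were seen.

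In the stretch from squalene to cholesterol, Fdft1 and Sqle were higher and Cyp51 was lower. Fdft1, squalene synthase, had 1154 reads in the CKO library against 570 in the control library and was 1.43-fold higher (1.29 to 1.59). Sqle, the epoxidase of the next step, had a log2 ratio of 0.58 (ratio interval 1.37 to 1.64), at 36.6 CPM in the CKO library and 24.4 CPM in the control library. The cyclase gene Lss, which closes the sterol rings, had a log2 ratio of 0.05, on 995 reads in the CKO library against 680.

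Cyp51, the cytochrome P450 that removes a methyl group from lanosterol, had 4485 reads in the CKO library against 7121 in the control library. It was 2.25-fold lower (2.16 to 2.33), at 105 CPM in the CKO library (102 to 108) and 237 CPM in the control library (231 to 242), and 0.972% of expressed genes had a lower ratio. Set against Sqle within each library, Cyp51 had 2.88 reads per Sqle read in the CKO library and 9.70 in the control library, which is 3.37-fold lower (3.06 to 3.71).

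Among the enzymes after Cyp51, those that remove further methyl groups and move double bonds were lower or near the median. Nsdhl, a sterol dehydrogenase of demethylation, was 1.64-fold lower (1.57 to 1.72), on 3417 reads in the CKO library against 3966. Ebp, the sterol isomerase, was lower, with a ratio of 0.706 (interval 0.666 to 0.747), on 2371 reads in the CKO library against 2376. Hsd17b7, the keto-sterol reductase, was 1.30-fold lower (1.18 to 1.43), on 894 reads in the CKO library against 820, and its log2 ratio was above 0 with TPM values as the scale, though below the median of all genes there.

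Msmo1, Sc5d and Dhcr7 had log2 ratios of 0.06, 0.04 and -0.01, with intervals that include 1. These genes encode the sterol methyl oxidase, a desaturase of the sterol ring and the reductase of the last step of the branch through lathosterol. Tm7sf2, a sterol reductase and the member with the fewest reads, had 293 in the CKO library against 241 in the control library and a log2 ratio of -0.20, and its interval of 0.722 to 1.02 includes 1 as well.

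**Figure D2:**
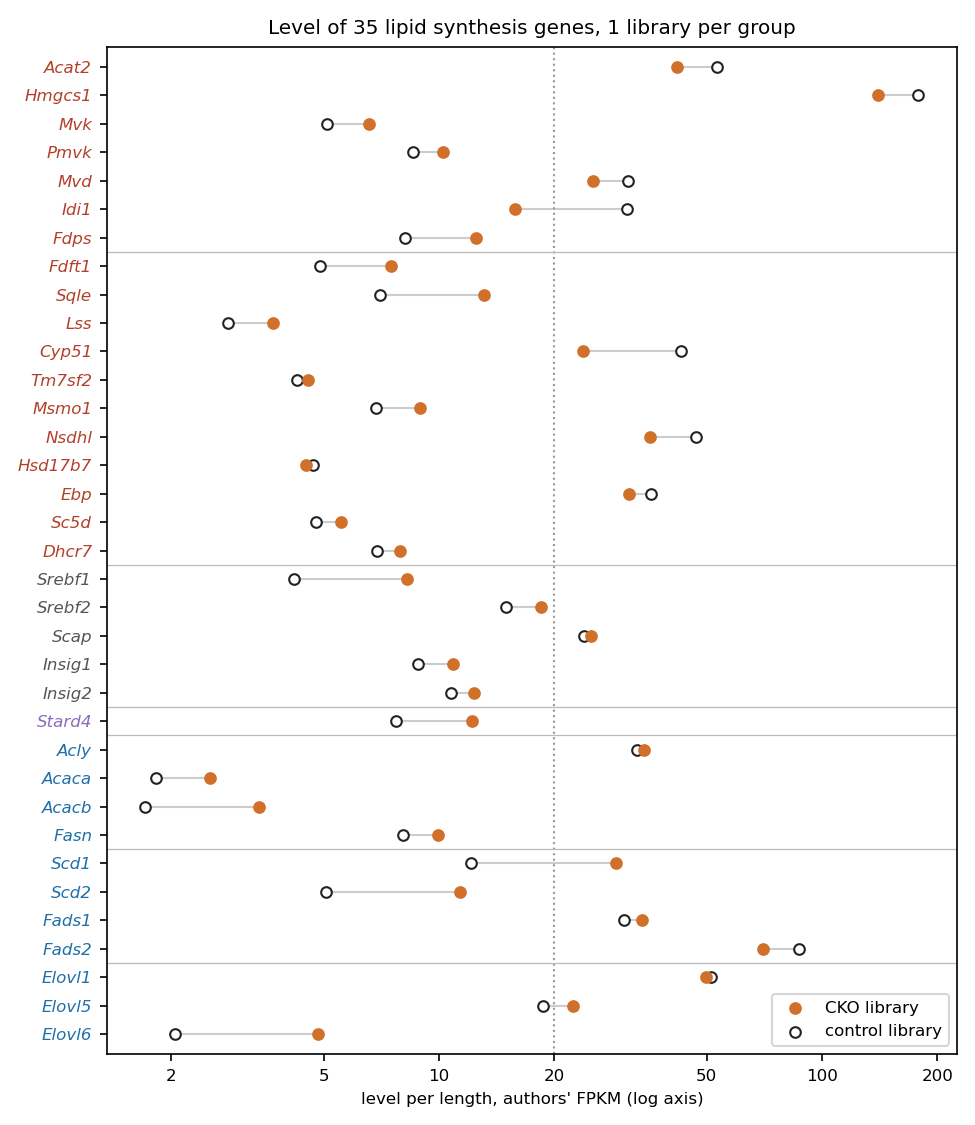
Level per length, as the authors' FPKM on a log axis, of each member in the CKO library (filled points) and the control library (open points), in pathway order, with a dotted line at 20 FPKM. Scd1 shows a wide gap at 29.0 FPKM in the CKO library against 12.1 in the control library, and Idi1 an opposite one at 15.8 against 31.0; on this scale the median log2 ratio of all expressed genes was 0.28, so a point pair that looks equal lies below that median.

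The enzymes of both routes separated by their level, as all expressed genes did. A split at 20 FPKM in the control library was chosen after the values were seen. Above it were 7 sterol enzymes, namely Hmgcs1, Acat2, Nsdhl, Cyp51, Ebp, Mvd and Idi1. All 7 had log2 ratios from -1.28 to -0.50, and they stayed below 0 under every scaling tried, whereas 4 of the 11 enzymes below the split had a ratio under 0 and their range was -0.37 to 0.58. Among all expressed genes at 20 FPKM or more in the control library, 83.4% had a log2 ratio below 0 and the median was -0.30, against 41.4% and 0.10 for genes under it. Of the fatty acid enzymes, the 4 above the split, Acly, Fads1, Fads2 and Elovl1, all had ratios below 0 with a median of -0.24, and 2 of the 7 under it did, with a median of 0.66. With total counts Acly, Fads1 and Elovl1 were above 0. At least 1.5-fold lower were 18.2% of the abundant expressed genes and 6 of the 7 sterol enzymes above the split. The control value enters both the split and the ratio. Chance errors in it therefore pull ratios down above the split and up under it, for all genes as well. By CKO values Idi1, at 15.8 FPKM, would fall under the split, and Scd1 and Elovl5, at 29.0 and 22.4 FPKM, above it. Summed over all 18 enzymes, sterol synthesis reads came to 1135 CPM in the CKO library and 1758 CPM in the control library, 1.55-fold lower (1.53 to 1.57), and with total counts the sum was 1.24-fold lower.

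**Figure D3:**
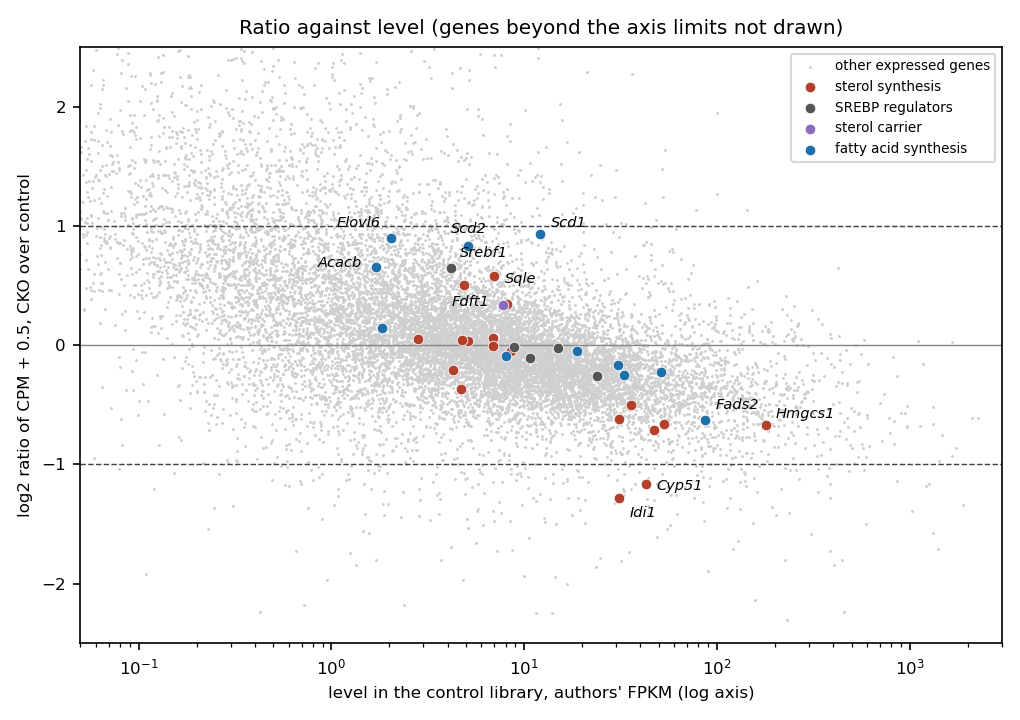
Log2 ratio of CPM + 0.5, CKO over control, against the authors' FPKM in the control library (log axis) for all expressed genes (grey) and the 35 members (coloured by role), with dashed lines at 2-fold. Abundant genes lie lower throughout the cloud, with a median of -0.30 at 20 FPKM or more in the control library, and Idi1 and Cyp51 lie below most genes of their level.

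Across the 35 members, Spearman's rho between control FPKM and log2 ratio was -0.75, against -0.59 over all expressed genes. These are descriptions over genes of the same 2 libraries, and the control value enters both axes, so chance errors in it pull them towards a negative rho.

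Promoter sequence was at hand from RefSeq (GRCm38.p6, the assembly behind the mm10 build that the submitters' processing notes name) for 28 of the 35 members. Fdps, Fdft1, Sqle, Stard4, Scd1, Scd2 and Fads1 have no entry in the table. The 250 bases before each start site were searched on both strands for TCACNCCAC, letters close to the sterol regulatory element that SREBPs bind, and for CCAAT, the box of the partner factor NF-Y, which was added after the values were seen. No matches of the 2 motifs overlapped in the windows shown. TCACNCCAC was found before 1 of the 28 members, Hmgcs1, and before 1.22% of 27025 genes in the table. CCAAT was found before 22 of the 28 members, or 78.6%, and before 37.5% of all genes. The shares of all genes include genes not expressed in these libraries, so they are not matched to the members, which are all expressed. Shown are the genes with the lowest log2 ratios, Idi1 and Cyp51, then Hmgcs1 with its match, and Elovl6, the highest member that has an entry. Each reads 5′ to 3′ on the strand of its gene, with the matches of either strand in capitals, so that a CCAAT on the opposite strand appears as ATTGG. The windows are chr13:8885356-8885605 on the plus strand for Idi1, chr5:4104698-4104947 on the minus strand for Cyp51, chr13:119690101-119690350 on the plus strand for Hmgcs1 and chr3:129532136-129532385 on the plus strand for Elovl6.
Idi1: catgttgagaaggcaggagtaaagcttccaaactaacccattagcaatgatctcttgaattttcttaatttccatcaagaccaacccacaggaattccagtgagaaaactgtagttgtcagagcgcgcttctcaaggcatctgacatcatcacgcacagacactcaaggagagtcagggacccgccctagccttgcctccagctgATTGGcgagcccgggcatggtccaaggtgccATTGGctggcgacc
Cyp51: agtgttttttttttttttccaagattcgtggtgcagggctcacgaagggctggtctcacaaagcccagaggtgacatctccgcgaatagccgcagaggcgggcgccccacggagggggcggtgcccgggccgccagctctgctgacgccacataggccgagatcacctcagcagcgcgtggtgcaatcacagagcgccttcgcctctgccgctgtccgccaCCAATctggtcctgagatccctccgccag
Hmgcs1: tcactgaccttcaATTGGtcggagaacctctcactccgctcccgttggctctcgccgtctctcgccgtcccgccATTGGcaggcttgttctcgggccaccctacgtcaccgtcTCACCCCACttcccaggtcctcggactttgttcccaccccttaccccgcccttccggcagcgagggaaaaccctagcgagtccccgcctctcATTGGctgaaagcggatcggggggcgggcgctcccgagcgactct
Elovl6: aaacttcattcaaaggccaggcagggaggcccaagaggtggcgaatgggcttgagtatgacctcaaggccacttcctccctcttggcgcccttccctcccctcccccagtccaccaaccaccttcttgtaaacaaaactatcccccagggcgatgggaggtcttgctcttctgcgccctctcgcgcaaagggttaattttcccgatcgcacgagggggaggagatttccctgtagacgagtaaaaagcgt
In Hmgcs1 the TCACNCCAC match ends 128 bases before the start site, between CCAAT boxes on the opposite strand. Idi1 has 2 boxes and Cyp51 has 1, all close to the start site, and the Elovl6 window holds neither motif. A match is only a run of letters, and the windows were picked by ratio or by match, so nothing is read from them about the ratios.

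The regulators of the pathway were close together, except for Srebf1. Srebf1, which encodes the SREBP1 proteins that mainly drive fatty acid genes, was 1.58-fold higher (1.44 to 1.73), on 1554 reads in the CKO library against 695 in the control library. Srebf2, whose product mainly drives cholesterol genes, had 3877 reads in the CKO library against 2788, a log2 ratio of -0.02 with a ratio interval of 0.936 to 1.03. Reads of Srebf1 per read of Srebf2 were 0.401 in the CKO library and 0.249 in the control library, 1.61-fold higher (1.45 to 1.78) whatever the scaling.

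Insig1, itself a known SREBP target, had a log2 ratio of -0.02 on 1247 reads in the CKO library against 893, and Insig2 had -0.11 on 1440 against 1097. Both ratio intervals include 1. Scap was 1.20-fold lower (1.15 to 1.25), on 4579 reads in the CKO library against 3873, and above 0 but below the median of all genes with total counts. Stard4, a cytosolic sterol carrier, was 1.27-fold higher (1.19 to 1.35), on 2816 reads in the CKO library against 1571.

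Fatty acid synthesis differed by enzyme. Acly, which makes cytosolic acetyl-CoA from citrate, was 1.19-fold lower (1.15 to 1.23), at 154 CPM in the CKO library and 183 CPM in the control library, and above 0 but below the median of all genes with total counts. Fasn, the multi-enzyme synthase that builds palmitate, had 4058 reads in the CKO library against 3062, which scales to 95.3 CPM in the CKO library and 102 CPM in the control library. Its log2 ratio of -0.09 was the largest distance from 0 among the 10 members that changed side of the all-gene median under some setting.

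The carboxylases that make malonyl-CoA were unequal. Acacb, whose product sits at the mitochondrion and there restrains fatty acid entry, was 1.59-fold higher (1.44 to 1.76), on 1310 reads in the CKO library against 582. Acaca, the cytosolic form that feeds synthesis, was 1.11-fold higher (1.01 to 1.22), on 1204 reads in the CKO library against 767. Reads of Acacb per read of Acaca were 1.09 in the CKO library and 0.759 in the control library, 1.43-fold higher (1.26 to 1.64).

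The stearoyl-CoA desaturase genes, which place the double bond that turns saturated into monounsaturated acyl chains, were the highest members together with Elovl6. Scd1 had 6073 reads in the CKO library against 2238 in the control library, at 143 CPM in the CKO library (139 to 146) and 74.3 CPM in the control library (71.3 to 77.5). It was 1.92-fold higher (1.83 to 2.02), and 88.7% of expressed genes had a lower ratio. Scd2 was 1.80-fold higher (1.67 to 1.93), on 2686 reads in the CKO library against 1058. The 2 genes kept their proportion, with 2.26 Scd1 reads per Scd2 read in the CKO library and 2.12 in the control library, and the interval of the change, 0.981 to 1.17, includes 1. They lie 87.6 kb apart on chromosome 19, and of their neighbours there Scd3 had 30 reads in the CKO library against 7, and Scd4 was listed at 0 in both.

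The other desaturases did not follow Scd1. Fads2, which opens polyunsaturated fatty acid synthesis, was the second most abundant member per length, at 70.2 FPKM in the CKO library and 86.9 FPKM in the control library. It was lower, with a ratio of 0.648 (interval 0.63 to 0.667), on 8838 reads in the CKO library against 9638. Fads1, its partner later in that route, lies 81.4 kb away and had a log2 ratio of -0.17 on 5066 reads in the CKO library against 4026, a ratio that was above 0 but below the all-gene median with total counts. Reads of Scd1 per read of Fads2 were 0.687 in the CKO library and 0.232 in the control library, 2.96-fold higher (2.80 to 3.13).

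Elovl6, the elongase that lengthens palmitate to stearate, the substrate of Scd1, had 1243 reads in the CKO library against 464 and was 1.89-fold higher (1.70 to 2.11). Elovl5, which elongates polyunsaturated chains, had a log2 ratio of -0.05 with a ratio interval of 0.910 to 1.02. Elovl1, an elongase of very long saturated chains, had -0.23 on 4351 reads in the CKO library against 3599, again above 0 with total counts. Reads of Elovl6 per read of Elovl1 were 0.286 in the CKO library and 0.129 in the control library, 2.22-fold higher (1.97 to 2.49). Summed over the 11 enzymes, fatty acid synthesis reads came to 1035 CPM in the CKO library and 1094 CPM in the control library, and with total counts to 1156 CPM in the CKO library and 979 CPM in the control library, so the direction of the sum depends on the scale.

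Counts of some members are uncertain because other transcripts share their sequence. Of the 50-base words in Acat2 transcripts of the GENCODE M21 annotation, 39.1% also occur in transcripts of Acat3, the adjoining near-copy, which had 1868 reads in the CKO library against 1876 in the control library. For Acaca the share was 30.4%, for Fdps 26.2% and for Idi1 17.7%, each mostly with unnamed gene models. The model that shares the most words with Idi1, Gm13502 with 635, is not among the counted genes, so its reads are unknown. The same holds for Gm43738, which shares 1030 words with Fdps. Gm35570, which shares 183 words with Idi1, had 108 reads in the CKO library against 89. Gm5182, which shares words with Acaca, had 61 against 37. For Tm7sf2 the share was 9.87%, with Vps51, which overlaps it on the same strand and had 1225 reads in the CKO library against 800. The reads of Tm7sf2, the member with the fewest, are thus uncertain beyond counting error. For Fdft1 the share was 9.38%, and for Scd1 and Scd2 it was 4.56% and 3.97%. Fdft1 also overlaps Ctsb on the opposite strand by 774 bp, and Ctsb had 27896 reads in the CKO library against 18241, so the reads of Fdft1 are uncertain too, since the strand setting of the counting is not given in the sources used here.

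Around the synthesis routes, 5 genes of 2 lists passed 2-fold with TMM scaling, all higher in the CKO library. Of 14 listed genes of cholesterol storage, egress and efflux, 4 were at least 2-fold higher in the CKO library and none (0) at least 2-fold lower, against 10.3% and 1.66% of all expressed genes, with a median of 0.09. Of these 4, Ch25h reached 1 CPM only in the CKO library, at 4.39 CPM against 0.764 CPM. It and Abcg1 were under 10 CPM in both libraries. With the 10 CPM minimum Apoe and Abca1 remain, and 5.62% of genes at that level were at least 2-fold higher. Apoe, the lipid-carrying apolipoprotein and the most abundant of them per length, had 26697 reads in the CKO library against 4885 and was 3.86-fold higher (3.75 to 3.99). Abca1, a cholesterol efflux pump, was 4.44-fold higher (4.01 to 4.92), on 2730 reads in the CKO library against 435.

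Abcg1, a related efflux transporter, was 2.36-fold higher on 400 reads in the CKO library against 120. Ch25h, a cholesterol hydroxylase of activated macrophages, was 5.75-fold higher (3.72 to 9.29) on 187 reads against 23. Among 13 genes of glycerolipid synthesis and lipid droplets, 1 was at least 2-fold higher. That is a smaller share than the 10.3% of all expressed genes, but a larger one than the 5.62% with the 10 CPM minimum. The comparison thus depends on the minimum. The gene past 2-fold, Plin2, the coat protein of lipid droplets, was 2.69-fold higher on 1658 reads in the CKO library against 436. The most abundant of that list per length, Mogat1, a monoacylglycerol acyltransferase gene, was 1.84-fold lower.

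**Figure D4:**
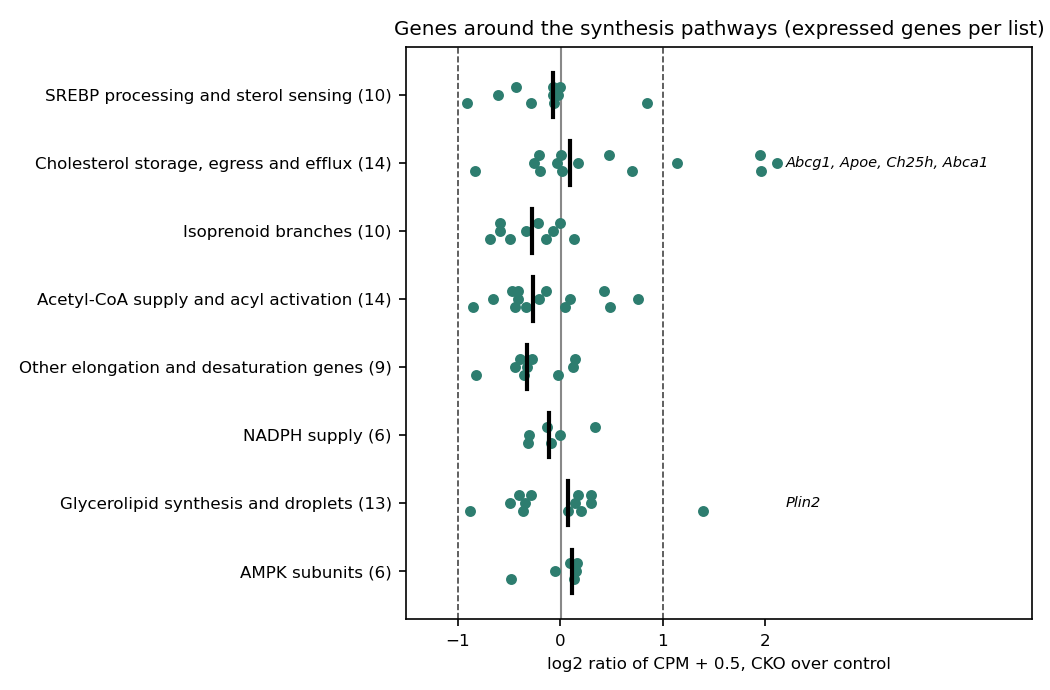
Log2 ratio of CPM + 0.5, CKO over control, for the expressed genes of 8 lists around the synthesis pathways (points, with the number of genes in brackets and a black bar at the median of each list); genes past 2-fold are named at the right and the grey line is the median of all expressed genes. Abcg1, Apoe, Ch25h, Abca1 and Plin2 are the 5 genes past the dashed 2-fold lines, all on the higher side, and total counts would move every point up.

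In the other 6 lists no gene passed 2-fold with TMM scaling. With FPKM values Mylip and Acsl4 did, at log2 ratios of 1.11 and 1.02. Both also passed it by TPM, at 26.5 in the CKO library against 10.9 for Mylip and 32.8 against 14.5 for Acsl4. Scaling by total counts takes both past 2-fold too. With total counts every ratio is higher by about the 0.32 that the median of all genes takes, so the signs of small ratios and of list medians, here and for the cell type markers, depend on the scale. Of 10 genes of SREBP processing and sterol sensing, 9 had a log2 ratio below 0, against 49.3% of all expressed genes and 58.9% of those at 10 CPM or more, with a median of -0.07. In that list Mylip, the LXR-driven ligase that marks lipoprotein receptors for breakdown, was 1.82-fold higher, and Erlin2, the most abundant per length, was 1.22-fold lower. The 10 genes of the isoprenoid branches had a median of -0.28, with the dolichol synthesis gene Dhdds 1.62-fold lower, the ubiquinone tail gene Pdss1 1.52-fold lower and Nus1, the most abundant, 1.16-fold lower.

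The 14 genes of acetyl-CoA supply and acyl activation had a median of -0.27. The malic enzyme gene Me1, a source of NADPH for lipid synthesis and the most abundant of the list, was 1.81-fold lower on 18980 reads in the CKO library against 24251, and Acsl4, an acyl-CoA synthetase of polyunsaturated chains, was 1.70-fold higher. The other elongation and desaturation genes, 9 of 13 expressed, had a median of -0.33, with the dehydratase gene Hacd2 1.77-fold lower and the reductase gene Tecr, the most abundant, 1.36-fold lower. The 6 genes of NADPH supply had a median of -0.11, with G6pdx, the entry enzyme of the pentose phosphate pathway, 1.27-fold higher and the abundant isocitrate dehydrogenase gene Idh1 1.24-fold lower. The 6 AMPK subunit genes, of the kinase that inhibits both carboxylases, had a median of 0.12, with Prkaa2 at -0.48 and Prkab2 at 0.17.

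Markers of cell types differed alongside these genes. Among all expressed genes, for comparison, 49.3% had a log2 ratio below 0, 1.66% were lower by 2-fold or more and 10.3% were higher by that much. Of 10 proximal tubule markers, 9 had a log2 ratio below 0 and 4 were at least 2-fold lower. Their summed level was 17184 CPM in the CKO library and 31740 CPM in the control library. These markers all lay at 20 FPKM or more in the control library. Of expressed genes at that level, 83.4% had a log2 ratio below 0 and 3.79% were at least 2-fold lower. All 10 macrophage markers had a ratio above 0, with summed levels of 358 CPM in the CKO library and 77.5 CPM in the control library. All 8 tubular injury markers were at least 2-fold higher, with sums of 4706 CPM in the CKO library and 380.0 CPM in the control library. All 5 androgen-linked kidney genes were at least 2-fold lower, with sums of 6337 CPM in the CKO library and 20879 CPM in the control library. The part of these shifts in the lower sterol enzymes, in the higher Scd1, Scd2, Elovl6 and Srebf1, and in the higher Apoe, Abca1 and Plin2 was not tested.

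Of 7 markers of the distal nephron and collecting duct, 6 had a ratio above 0, with sums of 3439 CPM in the CKO library and 2432 CPM in the control library, and the 3 podocyte markers summed to 327 CPM in the CKO library and 338 CPM in the control library. Fat and adrenal tissue, which adjoin the kidney and make lipid, left few defining transcripts. Of 10 adipocyte markers, Adipoq, Plin1, Cfd, Retn, Lep and Cidea were listed at 0 in both libraries, and the list summed to 53.7 CPM in the CKO library and 45.0 CPM in the control library, mostly from Fabp4, which endothelium also expresses. Of 8 adrenal cortex markers, Cyp11b1, Cyp11b2, Cyp21a1 and Nr5a1 were listed at 0 in both libraries, and the sums were 5.12 CPM in the CKO library and 3.82 CPM in the control library. The 6 hepatocyte markers summed to 20.7 CPM in the CKO library and 54.1 CPM in the control library, most of it from Ttr, with Cps1 listed at 0 in both.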

How the data were processed

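The authors deposited read counts per gene, which were whole numbers and not normalized, per the file headers. The deposited FPKM values (per gene length and depth) and TPM values (a fixed total per library) are named so in the file headers. A second deposited table holds normalized signal, in which each count was divided by a constant of its library, 42.6 for CKO and 30.1 for control. STAR 2.7.3a, HTSeq, Cufflinks 2.2.1, DESeq2, edgeR and the mm10 build are named in the submitters' processing notes, with no roles, and a stranded mRNA kit in the labels' protocols. The authors' FPKM per read was 0.756 times (Fdft1) to 0.926 times (Fasn) as large in CKO as in control across members.

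From the counts, edgeR 4.0.16 (R 4.3.3) gave TMM factors of 1.12 for CKO and 0.896 for control. Intervals of ratios at 95% come from the exact Clopper-Pearson method, applied to the part of a gene's reads that CKO held, and levels have exact Poisson intervals, in Python 3.11.15 with scipy 1.17.1. Intervals of ratios between 2 members are the large-sample ones of a log odds ratio. The intervals cover counting error only and treat reads as independent. PCR reads without molecular identifiers are not independent molecules, so the intervals may be too narrow even for counting error. The steps were tested on simulated counts. DESeq2 1.42.0 gave alternative size factors.

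The members and lists were chosen with earlier results of these data known. Named genes are all members and, in each of the 8 other pathway lists, those past 2-fold, the most abundant by mean FPKM and, where none passed, the 2 with the largest absolute log2 ratio. For sequences the rule took sterol genes with TCACNCCAC and the members with the lowest and highest ratio; Cyp51 was added, and Elovl6 stands for the highest member with an entry. Some genes of these pathways, among them 1 that this rule would name, are not reported here.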

Additional observations from a re-analysis of the deposited data

How the results depend on the processing

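The direction of a median depends on the scale, since total counts moved the median log2 ratio of all expressed genes to 0.32, total counts after mitochondrial genes and the top 50 genes were left out to 0.21, FPKM values to 0.28 and TPM values to 0.40. Under these 4 settings in that order, the median of all members was 0.26, 0.14, 0.25 and 0.36, that of sterol synthesis 0.17, 0.059, 0.14 and 0.24, and that of fatty acid synthesis 0.26, 0.14, 0.28 and 0.39. The members at least 2-fold higher numbered 3, 3, 3 and 4 (Scd1, Scd2 and Elovl6, with Srebf1 added by TPM values), and those at least 2-fold lower 0, 1, 0 and 0, the 1 being Idi1. In the same order, 15.7%, 14.6%, 10.1% and 16.0% of all genes at the 1 CPM minimum rose 2-fold or more. The shares that fell this much were 0.670%, 0.999%, 0.601% and 0.575%. The higher members are thus no larger a share than all genes at this minimum. Whether this holds against genes of 10 CPM or more was not tested under these 4 settings. With TMM scaling, the 10 CPM minimum brought the share of all genes past 2-fold upward from 10.3% to 5.62%. A limit of 1.5-fold gave 5 higher and 7 lower. DESeq2 size factors, a pseudocount of 0.1 or 2 CPM, dropping the level minimum and raising it to 10 CPM, which left 34 members, kept the counts at 0 and 2. Set against the all-gene median of the same setting, 25 of 35 members stayed on 1 side under every setting, 15 below it and 10 above, and the other 10 lay within 0.101 of it in the main values. The sterol median minus the all-gene median was -0.13 in the main values and 0.03 with the 10 CPM minimum, where the all-gene median was -0.08 and Tm7sf2 dropped out, and the same difference for fatty acid synthesis was -0.06 and 0.02. No paired analysis was possible because each group has 1 library, and no library could be left out. The depth limits Tm7sf2, Mvk and Pmvk most, whose intervals are the widest around 1 and include it.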
